A study of Arabidopsis thaliana with 27 samples.

Results

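The comparison described here sets the cotyledon pole of the heart-stage Arabidopsis embryo against its root pole. Of the 27 arrays of the series, the 6 titled as heart-stage captures were used for it: 3 arrays of the cotyledon pole and 3 of the root pole, named below by pole and replicate number. All were of Arabidopsis thaliana Col-0 plants (stock N1092) kept in compost in a growth room under long days, and the titles and tissue labels name no mutant, transgene or treatment for either pole. Total RNA of laser-dissected tissue was labelled with biotin and hybridised to Affymetrix ATH1 arrays, and each deposited value is the MAS5 signal of a probe set on a linear scale. Of 22810 probe sets, 22746 were not array controls. The 20890 that reached a signal of 50 on at least 2 of the 25 arrays with a clear group were tested, and 1856 were not. Captures of the globular stage (apical and basal) and of the torpedo stage (apical and basal) were used to set the heart poles against other ages. The sources used here do not say how many embryos or plants went into a capture, and p-values therefore reflect variation among captures that may be only technical.

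At the heart stage the Arabidopsis embryo turns from radial to bilateral symmetry: cotyledon primordia grow out at the apical flanks, and the root meristem is set up at the opposite end. YABBY and NGATHA transcription factors belong to the programme of lateral organs, whereas PLETHORA-type factors such as BBM and zinc-finger factors such as JKD belong to that of the root stem cell niche and ground tissue. Auxin made and transported in the apical domain peaks at the cotyledon tips and at the root pole. The embryo greens during this period, so genes of photosynthesis are also active in it.

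The 6 arrays did not sort by pole. Over the 20890 probe sets, cotyledon array 1 and root array 1 correlated at 0.819 on the log2(signal + 10) scale, whereas the other 14 pairs of heart arrays lay between 0.224 and 0.578. These arrays of opposite poles differed at least 2-fold at 24.9% of probe sets, against 37.8% to 63.9% for the other pairs. Cotyledon array 2 correlated with the other 24 arrays at a median of 0.296. Its median signal was 75.4, against 35.6 to 42.9 on the other 5 heart arrays, and 96 of its probe sets exceeded 1000, against 603 to 900. The log2 ratio of 3' to 5' control probe sets was 8.02 for GAPDH, against 5.16 to 6.01 on the other heart arrays, and -1.80 for actin, against 0.31 to 1.85. The part of these features in the results was not tested. The median differences of the leading genes are given below also without cotyledon array 1 or 2.

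**Figure D1:**
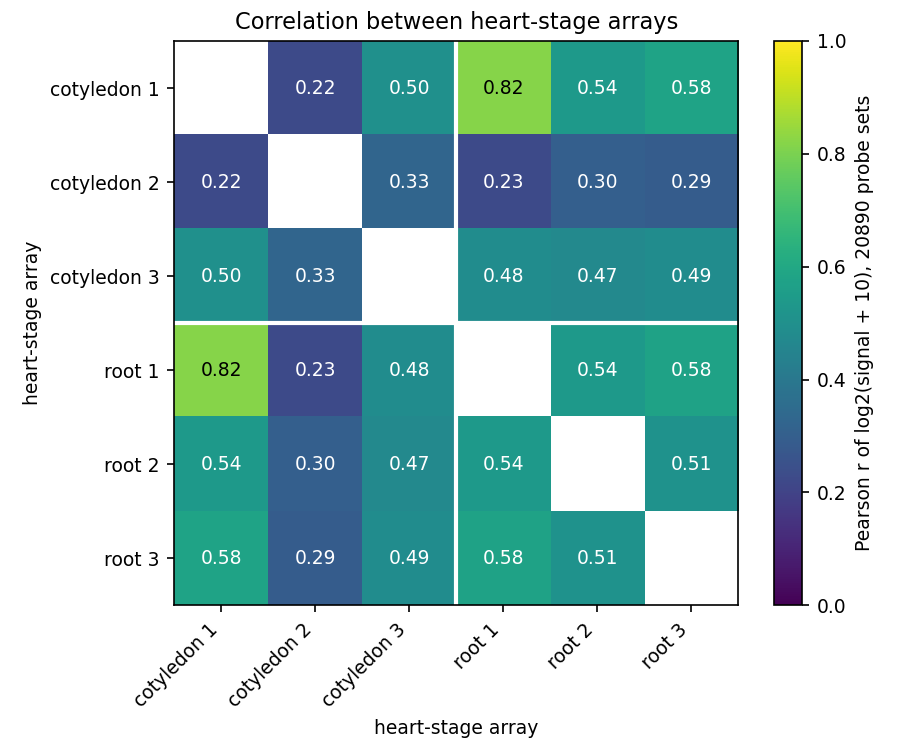
Pearson correlation between the 6 heart-stage arrays over 20890 probe sets on the log2(signal + 10) scale, with the 3 cotyledon arrays before the 3 root arrays on both axes. Cotyledon 1 and root 1 stand out at 0.82, and every pair that includes cotyledon 2 lies at or below 0.33.

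The labels of the poles were set against genes known to mark each end. These genes were chosen with earlier results of these data known, so they are no independent check of the labels. Most of them return in the lists below, where they are the same observation. The root-pole markers with a single-gene probe set, BBM and JKD, summed to 15.8 to 94.0 on the cotyledon arrays and to 516.2 to 678.9 on the root arrays, with no overlap. BBM alone did overlap: on root array 3 it read like the cotyledon arrays, and JKD made up nearly all of the sum there. The upper-embryo markers (YAB3, YAB5, PHV, JAG, NGA1 and LHCB4.1) summed to 338.2 to 1230.2 on the cotyledon arrays and to 327.3 to 2636.4 on the root arrays, and here the groups overlapped. The highest root sums held LHCB4.1 at 1985.7 and 2418.4 on root arrays 2 and 3, while 5 of these 6 markers had a positive difference, with a median of 0.72 on the log2 scale. Among markers of neighbouring seed tissues, the endosperm genes AGL62 and IKU2 summed to 20.6 to 119.5 on cotyledon and 63.2 to 189.4 on root arrays. BAN, an enzyme of seed coat tannin synthesis, had signals of 168.9, 22.0 and 5.7 on the cotyledon arrays and of 8.2, 5.1 and 9.2 on the root arrays, so that it was high only on cotyledon array 1 among the 6 heart arrays. No suspensor marker was measured. The part of these tissues in the results was not tested.

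2 probe sets passed the test between the poles, 0.00957% of the 20890 tested, with 1 higher and 1 lower at the cotyledon pole (0.00479% each). Neither has a gene in the probe table, so they are named by probe set, and their roles are not given. Probe set 253010_at had signals of 1075.2, 839.6 and 1827.6 on the cotyledon arrays and of 5.2, 7.7 and 35.2 on the root arrays. All 3 cotyledon values lay far above all 3 root values, and the log2 difference, cotyledon minus root, was 5.70 (SE 0.86, limma adjusted p = 0.00500). Probe set 261305_at showed the opposite pattern, with signals of 88.2, 105.0 and 4.4 on the cotyledon arrays and of 1648.5, 2514.4 and 4919.1 on the root arrays. Its log2 difference was -5.65 (SE 0.83, adjusted p = 0.00500), and the groups did not overlap. In bulk captures such as these, fewer cells of a type and less RNA per cell cannot be told apart.

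Within replicate numbers 1, 2 and 3, cotyledon minus root was 6.16, 5.58 and 5.35 for 253010_at and -4.08, -4.46 and -8.42 for 261305_at. Because the groups of both do not overlap, any pairing of arrays gives the same direction, so the direction is no further check. Neither probe set passed when cotyledon array 3 was left out (adjusted p = 0.0887 each) or when the spread was estimated from the 6 heart arrays alone (adjusted p = 0.560 and 0.987). Beyond these calls, 1112 probe sets (5.32%) had an unadjusted p below 0.05 in limma. Of those, 57.6% were higher at the cotyledon pole. Of the probe sets below that p after quantile normalization the share was 42.2%, and after median centring it was 29.7%. The median log2 difference of all probe sets was 0.29, and it was 0.05 after quantile normalization and 0.04 without cotyledon array 2, so single differences below are read beside that shift.

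Because few probe sets passed, the genes farthest apart are described by their signals. The 3 cotyledon values lay above the 3 root values, with all cotyledon values at least 50, at 547 probe sets (2.62% of those tested). They lay below them, with all root values at least 50, at 278 (1.33%). The 12 genes with the largest difference in each direction among these are named here. None of the 24 passed the test over all probe sets in the fit described so far, where their adjusted p lay between 0.0635 and 0.807. AT5G38180 passed with array weights (adjusted p = 0.0331) and without the intensity trend (adjusted p = 0.0407).

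**Figure D2:**
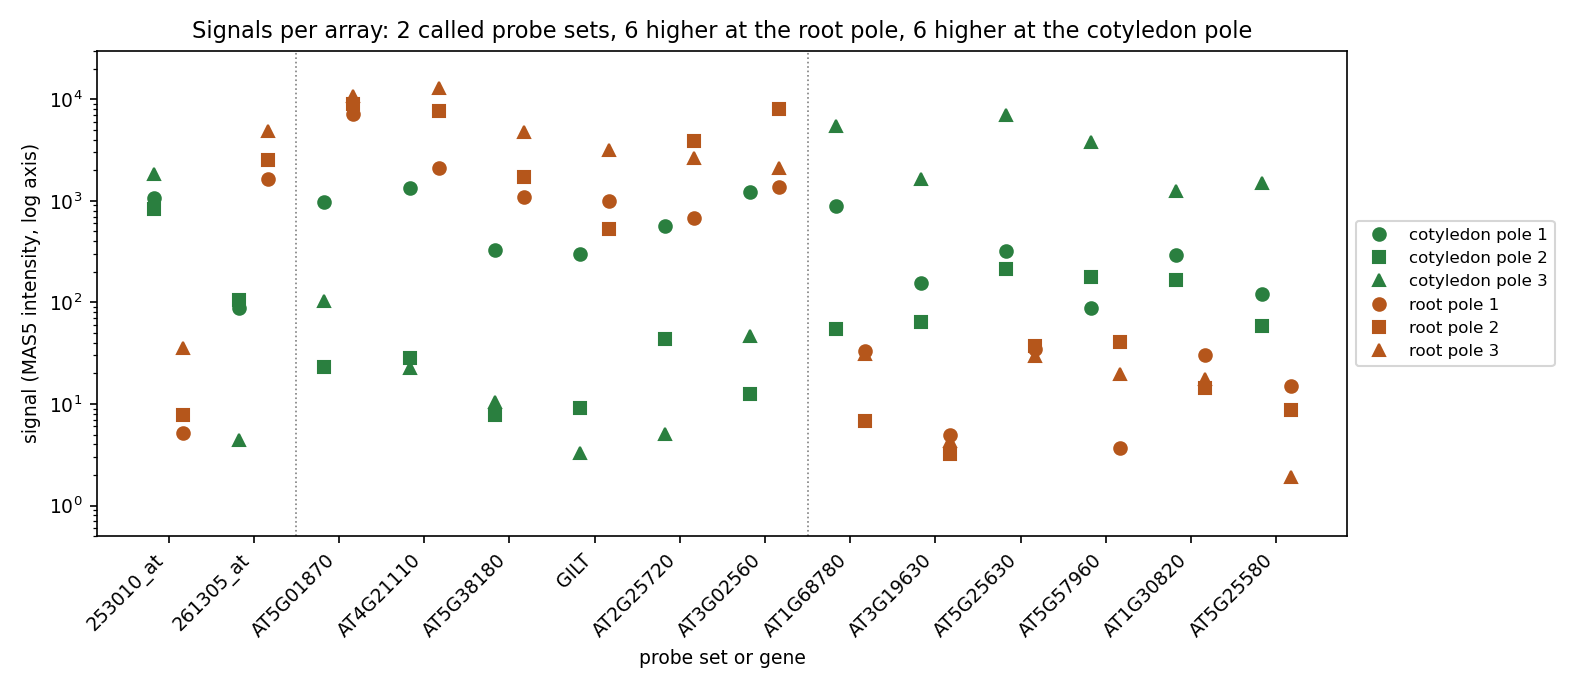
Signal on each array (log axis) of the 2 probe sets that passed the test, of 6 genes higher at the root pole and of 6 genes higher at the cotyledon pole. Green points are cotyledon arrays, orange points root arrays, and the marker shape gives the replicate number. Cotyledon array 1 (green circles) lies nearest to the root arrays for the root-pole genes.

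Most of the 12 genes on the root side carry only a locus code. AT5G01870 had signals of 963.1, 23.0 and 104.0 on the cotyledon arrays and of 7160.6, 9062.7 and 10707.1 on the root arrays, a log2 difference of -5.85 (SE 1.25, adjusted p = 0.260). For AT4G21110 the signals were 1332.9, 28.6 and 22.6 on the cotyledon arrays and 2087.6, 7736.0 and 12807.0 on the root arrays (-5.64, SE 1.49, adjusted p = 0.388). AT5G38180, the gene nearest to the threshold, had 330.8, 7.8 and 10.4 on the cotyledon arrays and 1095.0, 1716.4 and 4739.0 on the root arrays (-5.39, SE 0.98, adjusted p = 0.0635). In each of these, cotyledon array 1 was many times above the other cotyledon arrays.

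GILT, named for a thiol reductase of lysosomes in animals, had signals of 301.3, 9.1 and 3.3 on the cotyledon arrays and of 988.2, 531.0 and 3152.1 on the root arrays (-4.80, SE 1.28). LCR69, of the small cysteine-rich defensin-like peptides, had 3973.7, 9.5 and 978.0 on the cotyledon arrays and 6238.0, 16016.5 and 9530.5 on the root arrays (-4.53, SE 1.59). ALDH7B4, an aldehyde dehydrogenase known from stress responses, had 428.2, 62.7 and 34.6 on the cotyledon arrays and 893.3, 6065.7 and 1818.6 on the root arrays (-4.26, SE 1.20). SCPL45, a serine carboxypeptidase-like protein, had a difference of -4.13 (SE 1.66), with cotyledon signals of 677.8, 17.9 and 363.6 and root signals of 1817.9, 11760.3 and 1768.8. In LCR69 and SCPL45 cotyledon array 2 was the lowest of all 6 arrays, and without it their differences were -2.31 and -2.73. The other 5 genes of this side, AT2G25720, AT3G02560, AT1G73620, AT1G04645 and AT1G48430, had differences of -4.63 to -4.22. Cotyledon array 2 was also the lowest of all 6 arrays in AT5G01870, AT5G38180 and AT3G02560, and without it their differences were -4.73, -4.64 and -3.43. The median of the 12 was -4.58 with all arrays, -6.19 without cotyledon array 1 (-7.38 to -4.25) and -4.30 without cotyledon array 2 (-4.82 to -2.31).

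AT1G73620 differed from the rest of the 12. Its signals were 10.0, 17.4 and 41.1 on the cotyledon arrays and 514.4, 667.0 and 997.4 on the root arrays, and the difference was -4.55 (SE 1.12, adjusted p = 0.381). It is the 1 gene of the 12 in which cotyledon array 1 was not the highest of the cotyledon arrays.

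On the cotyledon side the array that stood out was cotyledon 3, the highest of the 3 cotyledon arrays in 11 of the 12 genes. AT1G68780 had signals of 898.0, 55.0 and 5424.8 on the cotyledon arrays and of 33.2, 6.8 and 31.2 on the root arrays, a log2 difference of 4.46 (SE 1.35, adjusted p = 0.509). AT3G19630 had 155.3, 64.4 and 1650.7 on the cotyledon arrays and 5.0, 3.2 and 4.3 on the root arrays (4.27, SE 1.15, adjusted p = 0.388). AT5G57960 had 89.0, 178.6 and 3787.9 on the cotyledon arrays and 3.7, 40.8 and 19.7 on the root arrays (3.91, SE 0.96, adjusted p = 0.376). The root values of these genes were low on every array, while the cotyledon values ranged over more than 10-fold.

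BZIP60, the transcription factor that relays stress in the endoplasmic reticulum to the nucleus, had signals of 523.1, 290.4 and 1317.6 on the cotyledon arrays and of 38.6, 69.2 and 42.1 on the root arrays (3.35, SE 0.85, adjusted p = 0.388). It is the only gene of the 12 on this side with a name beyond its locus code. AT5G14610 was bright on all 3 cotyledon arrays, with 2100.8, 2868.5 and 3162.5, against 863.3, 136.4 and 187.4 on the root arrays (3.19, SE 1.25). The remaining 7, AT5G25630, AT1G30820, AT5G25580, AT4G19390, AT1G06050, AT1G51730 and AT1G80780, had differences of 3.16 to 4.19. The median difference of the 12 was 3.63, and it was 2.70 without cotyledon array 3, 3.96 without cotyledon array 1 and 4.42 without cotyledon array 2.

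Since captures with the same replicate number may be related, the poles were also compared within each number. The median difference over all probe sets was itself above 0, at 0.02, 0.70 and 0.21 within numbers 1, 2 and 3, and the counts are read beside that shift. All 3 within-number differences were positive at 4455 probe sets (21.3%) and negative at 1419 (6.79%). They were at least 1 on the log2 scale in all 3 numbers at 232 probe sets (1.11%) and at most -1 at 149 (0.713%). Differences of at least 2 in all 3 numbers were found at 12 probe sets (0.0574%), and of at most -2 at 18 (0.0862%). For the 12 root-side genes the median size of the difference was 0.95 within number 1, 6.49 within number 2 and 6.27 within number 3. For the 12 cotyledon-side genes it was 2.87, 2.10 and 6.48. AT1G73620 again stood apart, with -4.71, -4.63 and -4.30.

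**Figure D3:**
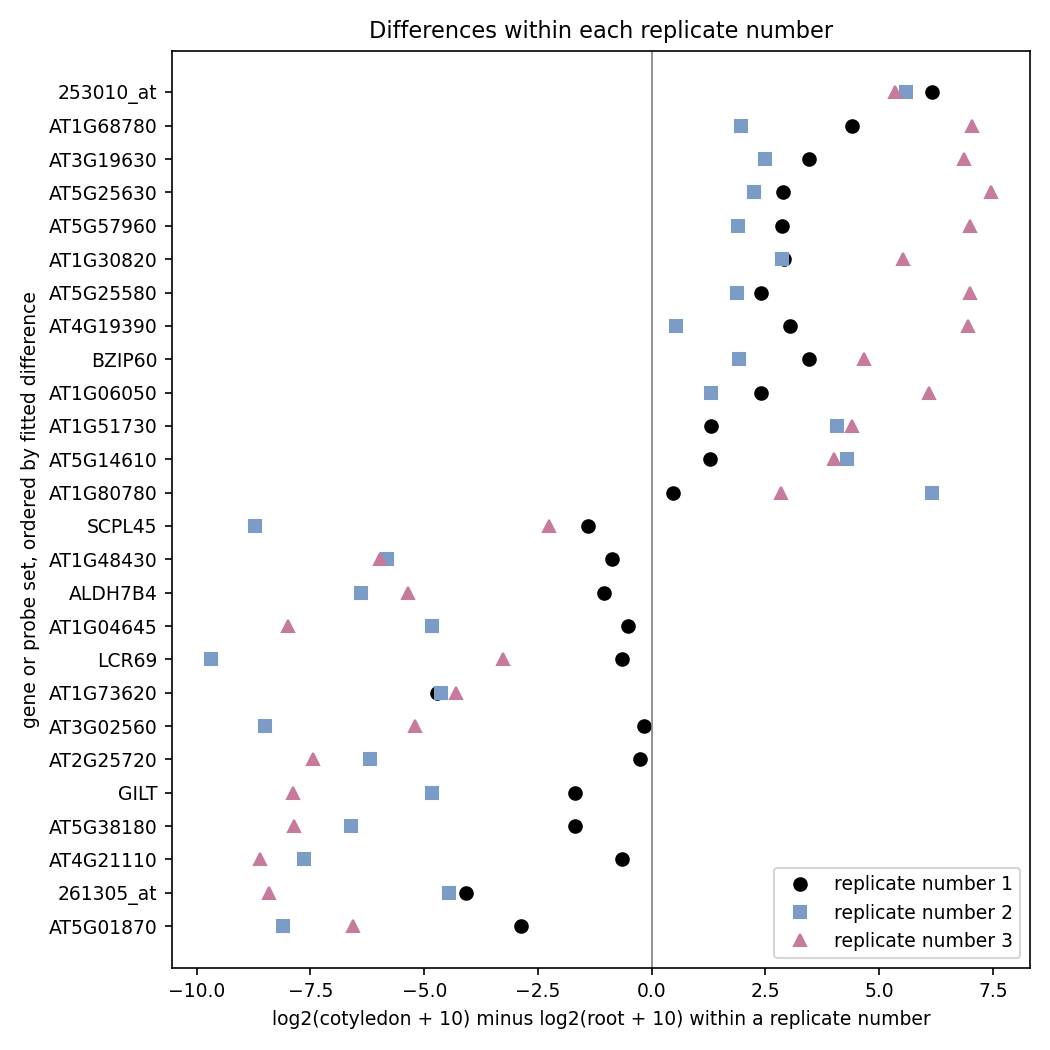
Log2 difference, cotyledon minus root, within each replicate number for the 2 called probe sets and the 24 named genes, ordered by the fitted difference. Number 1 (black circles) lies nearest to 0 for 11 of the 12 root-side genes, and number 3 (pink triangles) is farthest to the right for most cotyledon-side genes.

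The fit was therefore repeated without cotyledon array 1. This left out an array close to the other group, which by itself widens the differences. 50 probe sets then passed (0.239%), 13 higher (0.0622%) and 37 lower (0.177%) at the cotyledon pole, among them the 2 of the full fit. In 36 of the 37 lower calls cotyledon array 1 had exceeded both other cotyledon arrays, and in 15 it had lain within the range of the root arrays. Without both arrays numbered 1, 53 passed (0.254%), 12 higher (0.0574%) and 41 lower (0.196%), and 32 probe sets were called in both settings (64.0% of the 50 and 60.4% of the 53).

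Among the 23 of these 50 with 1 gene, AT5G38180 had the lowest adjusted p (0.00223), with a log2 difference of -6.77, and 4 other root-side genes above also passed: AT5G01870, AT4G21110, GILT and AT3G02560. AT3G08610 shows the pattern, with signals of 2352.4, 17.5 and 4.3 on the cotyledon arrays and of 2040.0, 4675.0 and 4558.5 on the root arrays. Its difference was -5.18 with all arrays and -7.47 (adjusted p = 0.0229) without cotyledon array 1. On the cotyledon side, XPO1B, an exportin of nuclear transport, had 7.0, 160.9 and 294.4 on the cotyledon arrays and 4.7, 4.5 and 7.9 on the root arrays. Its difference was 2.62 with all arrays and 3.87 (adjusted p = 0.0299) without cotyledon array 1, which read at the level of the root arrays. AT5G57960, described above, also passed (4.95, adjusted p = 0.0312). AT3G08610 and XPO1B were chosen after their values were seen.

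Genes of known embryo patterning were then examined as lists. No member of any list passed the test. The lowest adjusted p was 0.461, for JKD, so values of list members are given as a description. The median difference of each list stands beside 0.29, that of all 20890 probe sets.

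All 9 measured genes of cotyledon and leaf polarity and growth had a positive difference (65.7% of all probe sets did), with a median of 0.79 and a range of 0.47 to 1.22 for the median over all settings. YAB5, a YABBY factor of the lower organ side, had signals of 56.5, 131.7 and 82.9 on the cotyledon arrays and of 9.5, 27.5 and 6.3 on the root arrays (2.07, SE 0.92). NGA2, a NGATHA factor of leaf margin growth, had 120.5, 257.6 and 1209.4 on the cotyledon arrays and 98.4, 88.9 and 64.2 on the root arrays (1.91, SE 0.78). NUB, which acts with JAG in the growth of lateral organs, had 147.7, 134.0 and 149.5 on the cotyledon arrays and 10.1, 105.2 and 79.9 on the root arrays (1.37, SE 0.73). In these 3 of the 9 the cotyledon arrays lay above the root arrays without overlap, as they did at 5.59% of all probe sets. The groups overlapped for JAG (0.87), NGA1 (0.79), YAB3 (0.66), PHV (0.34), NGA4 (0.31) and NGA3 (0.20), and YAB3 was above the root arrays on cotyledon array 3 alone. The differences of YAB3, PHV, NGA4 and NGA3 turned negative in at least 1 setting.

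The 3 measured genes of the root pole and ground tissue all had a negative difference, with a median of -2.47 (-3.03 to -1.40 over all settings). JKD, which restrains the movement of SHORT-ROOT in the ground tissue, had signals of 2.5, 33.6 and 7.8 on the cotyledon arrays and of 42.0, 168.2 and 506.8 on the root arrays (-2.98, SE 0.87), with no overlap, a pattern that 1.98% of all probe sets showed in this direction. BBM, a PLETHORA-type factor of the embryonic root, had 13.3, 60.4 and 10.7 on the cotyledon arrays and 557.3, 510.7 and 9.4 on the root arrays (-2.47, SE 1.28). Root array 3 thus lacked the BBM signal of the other root arrays. AT5G41920, whose synonym in the gene table is SCL23 and which belongs to the SCARECROW-like GRAS factors, had 10.0, 17.2 and 5.5 on the cotyledon arrays and 124.6, 8.7 and 20.5 on the root arrays (-1.06, SE 0.89). Only root array 1 was high for it.

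Of 10 tested auxin genes, 7 had a positive difference, and the median was 0.40. WAG2, a kinase related to PINOID that acts on auxin efflux carriers, had signals of 18.6, 8.6 and 25.8 on the cotyledon arrays and of 66.0, 70.4 and 51.9 on the root arrays (-1.44, SE 0.75), with no overlap, as at 1.98% of all probe sets in this direction. IAA29, an Aux/IAA repressor, had 21.9, 130.7 and 111.7 on the cotyledon arrays and 18.9, 30.6 and 34.5 on the root arrays (1.13, SE 0.78). The biosynthesis genes YUC2 and YUC4 had overlapping groups, with differences of 0.38 and 0.35. So did the auxin-conjugating enzymes GH3.3 (0.78) and WES1 (0.43), UGT84B1, which glucosylates auxin (0.69), and the repressors IAA20 (-0.32) and IAA30 (-0.33). GH3.1 was low everywhere, at 12.0, 13.4 and 25.6 on the cotyledon arrays and 7.3, 6.3 and 8.9 on the root arrays. YUC6 did not reach the minimum signal.

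**Figure D4:**
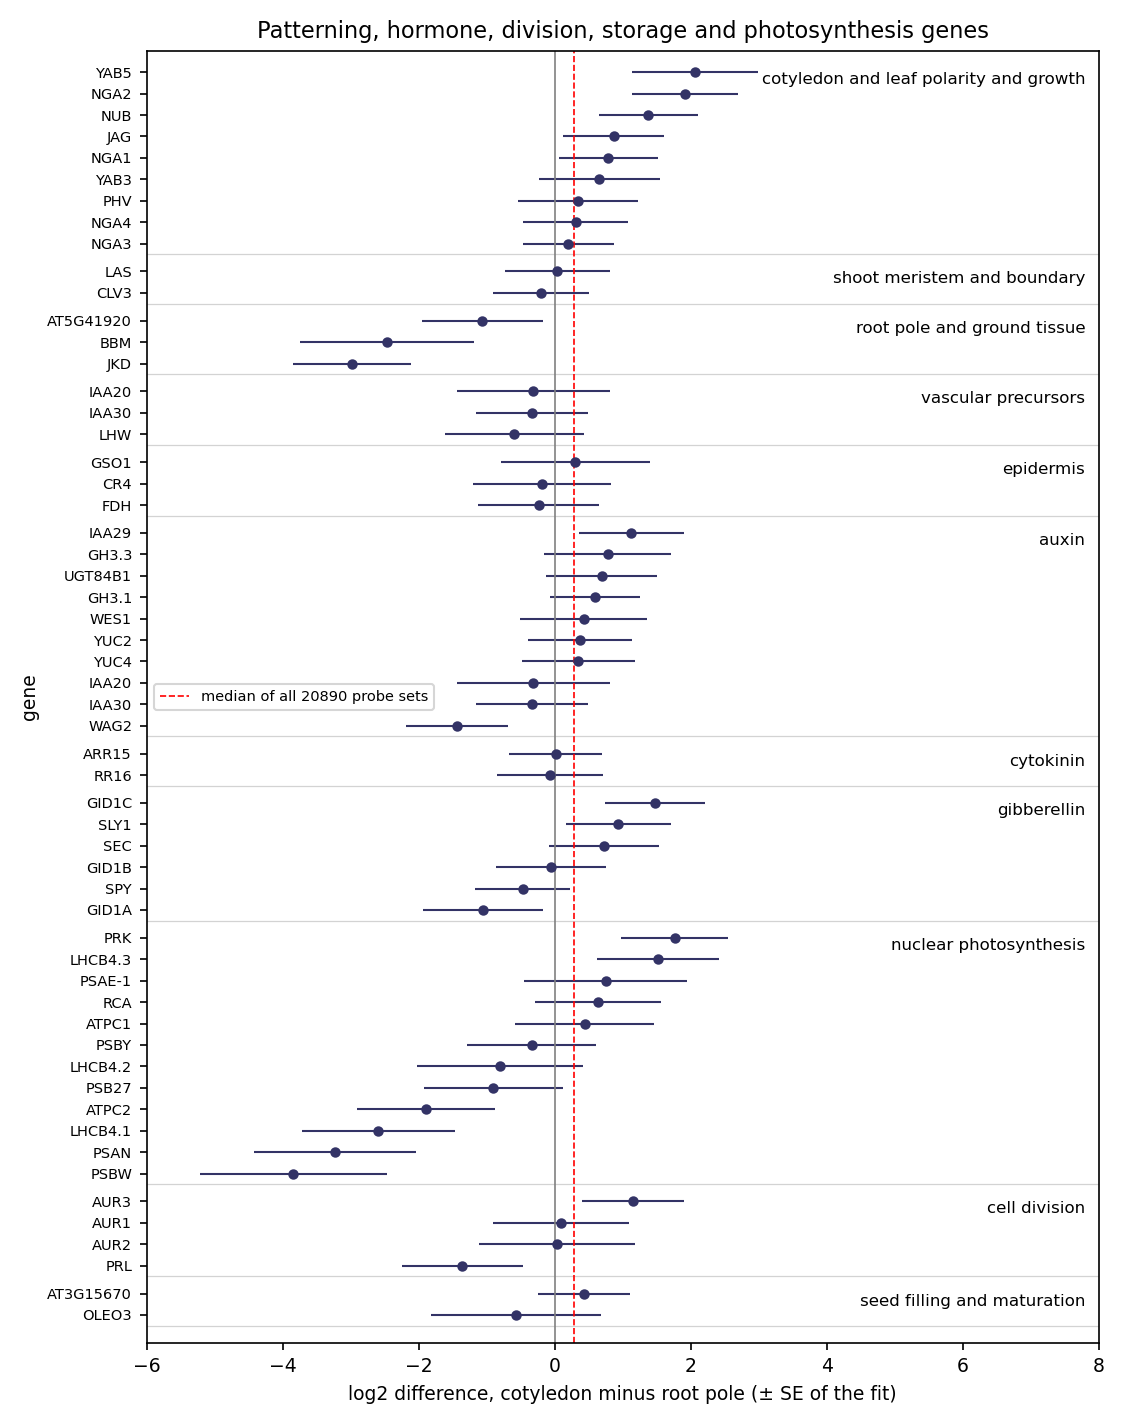
Log2 difference between the poles, cotyledon minus root, with the standard error of the fit, for measured members of 11 gene lists. The dashed line is the median of all 20890 probe sets. Polarity genes lie right of 0 and root-pole genes left of it, and photosynthesis genes spread from -3.85 to 1.77.

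Among 6 gibberellin genes, the receptor GID1C had signals of 13.5, 161.1 and 44.4 on the cotyledon arrays and of 12.3, 18.3 and 6.2 on the root arrays (1.47, SE 0.73). The receptor GID1A had 15.3, 6.1 and 10.6 on the cotyledon arrays and 443.9, 3.0 and 2.7 on the root arrays (-1.05, SE 0.88), which rests on root array 1. The receptor GID1B (-0.05), the F-box protein SLY1 (0.94) and the glycosyltransferases SEC (0.72) and SPY (-0.47) also had overlapping groups. The cytokinin response regulators ARR15 (0.01) and RR16 (-0.07), the meristem genes LAS (0.04) and CLV3 (-0.20), and the vascular factor LHW (-0.59) were within 1 SE of 0. So were the epidermal genes GSO1 (0.30), CR4 (-0.19) and FDH (-0.24).

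Of 4 cell division genes, the mitotic kinase AUR3 had signals of 312.8, 143.2 and 89.0 on the cotyledon arrays and of 78.5, 85.2 and 42.8 on the root arrays (1.15, SE 0.75), with no overlap, as at 5.59% of all probe sets in this direction. Its relatives AUR1 (0.10) and AUR2 (0.03), and the replication factor PRL (-1.36), had overlapping groups. The oleosin OLEO3, a coat protein of oil bodies, ranged widely within each pole, at 487.6, 269.5 and 14488.9 on the cotyledon arrays and 303.4, 6334.2 and 3311.7 on the root arrays (-0.57, SE 1.25).

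The 12 nuclear photosynthesis genes did not move together, with 5 positive and 7 negative differences. Their median was -0.57, but 0.28 without cotyledon array 2. PSBW, a small photosystem II subunit, had signals of 4590.2, 77.5 and 496.8 on the cotyledon arrays and of 4403.8, 14057.7 and 9742.9 on the root arrays (-3.85, SE 1.38). PSAN, a lumenal subunit of photosystem I, had 367.9, 22.7 and 306.5 on the cotyledon arrays and 439.2, 3805.9 and 1871.6 on the root arrays (-3.23, SE 1.19). It was the only gene of the 12 without overlap, a pattern that 1.98% of all probe sets showed in this direction. LHCB4.1, an antenna protein of photosystem II, had 282.6, 11.4 and 731.7 on the cotyledon arrays and 200.2, 1985.7 and 2418.4 on the root arrays (-2.59, SE 1.13).

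Cotyledon array 2 was the lowest of the 6 in PSBW, PSAN and LHCB4.1, and without it their differences were -2.47, -2.09 and -1.11. On the other side, PRK, the phosphoribulokinase of the Calvin cycle, had 62.0, 181.0 and 1616.1 on the cotyledon arrays and 83.2, 89.2 and 51.5 on the root arrays (1.77, SE 0.79). LHCB4.3, a paralogue of LHCB4.1, had a difference of 1.52 (SE 0.90), which rests on 3332.2 on cotyledon array 3. ATPC2, a gamma subunit of the chloroplast ATP synthase, had -1.89 (SE 1.02), and its within-number differences of -2.04, -1.56 and -2.06 were alike.

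Of 68 tested plastid-encoded genes, 42 had a positive difference, and the median of 0.25 was near that of all probe sets. psbZ, of photosystem II, had signals of 201.7, 165.8 and 114.0 on the cotyledon arrays and of 243.2, 8509.7 and 7960.3 on the root arrays (-3.95, SE 1.27). The groups did not overlap, though root array 1 read like the cotyledon arrays. The reaction centre gene psbD had 255.4, 462.6 and 96.9 on the cotyledon arrays and 51.5, 88.1 and 51.1 on the root arrays (1.73, SE 0.65), and psbC (0.60) also did not overlap. Thus 2 of the 68 were higher and 1 lower at the cotyledon pole without overlap, against 5.59% and 1.98% of all probe sets. The ribosomal protein gene rpl36 had a difference of -4.03 (SE 2.03) and accD, of fatty acid synthesis, one of 2.56 (SE 1.17), each set by 1 or a pair of arrays. rpl20 (-2.97) and ccsA (-2.70) had overlapping groups as well.

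The poles were next compared with the apical and basal captures of the globular and torpedo embryo, which share no array with the heart captures. No probe set passed the test of a difference between the heart and globular stages or between the heart and torpedo stages (0% each), and 925 (4.43%) and 927 (4.44%) had an unadjusted p below 0.05. Of the 547 probe sets higher at the cotyledon pole without overlap, 63 (11.5%) were also higher in torpedo apical than basal without overlap, against 4.94% of all probe sets. 26 (4.75%) went the other way, against 6.67% of all. Of the 278 higher at the root pole, 30 (10.8%) were also higher in torpedo basal, against 6.67% of all, and 15 (5.40%) were higher in torpedo apical, against 4.94%. By sign alone, without regard to overlap, 55.4% of the 278 were lower in torpedo apical, against 57.9% of all, and 54.1% of the 547 were higher, against 42.1%. With the globular captures the shares in the same direction were 4.02% (22 of 547, against 3.64% of all) and 2.88% (8 of 278, against 5.1%).

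**Figure D5:**
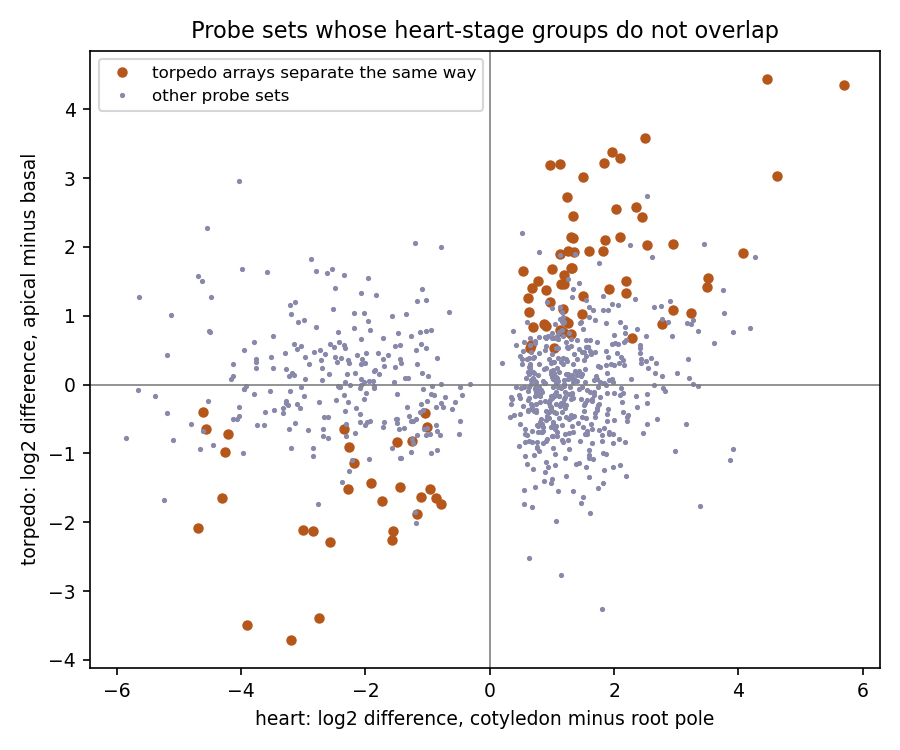
Torpedo difference (apical minus basal) against heart difference (cotyledon minus root), both on the log2 scale, for the 547 probe sets higher at the heart cotyledon pole and the 278 higher at the root pole without overlap. All of these had at least 50 on every array of the higher heart pole. Orange points, 63 on the right and 30 on the left, also separate without overlap in the same direction at the torpedo stage.

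Probe set 253010_at behaved alike at the torpedo stage, with signals of 804.1, 395.5 and 525.6 in torpedo apical and of 7.86, 71.4 and 4.27 in torpedo basal, a difference of 4.35 (SE 0.86, adjusted p = 0.0485). It is among the 19 probe sets (0.091%) that passed between those torpedo captures. The heart and torpedo differences were 1.34 apart (SE 1.22, adjusted p = 0.912). In the globular embryo the difference was 0.41. Probe set 261305_at had a torpedo difference of -0.08, with signals of 220.2, 238.9 and 268.3 in torpedo apical and of 90.9, 902.6 and 194.4 in torpedo basal. Its heart difference was 5.57 log2 units below that (heart minus torpedo -5.57, SE 1.17, adjusted p = 0.307).

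30 genes were higher at both the cotyledon pole and the torpedo apical end without overlap, among 320 single-gene probe sets higher at the cotyledon pole. This count and the next required at least 50 in the higher group. Of all probe sets, 4.94% were higher in torpedo apical without overlap, with no such minimum. AT1G68780, the top gene of the cotyledon side, had 943.8, 832.1 and 672.1 in torpedo apical and 23.4, 111.7 and 3.13 in torpedo basal, a difference of 4.44 (SE 1.35) beside 4.46 at the heart stage. AT3G58180 had a heart difference of 1.96 and a torpedo difference of 3.38, with signals of 440.0, 228.6 and 154.7 on the cotyledon arrays and of 43.9, 72.4 and 57.0 on the root arrays. NGA2 (1.91 at the heart and 1.39 at the torpedo stage) and AUR3 (1.15 and 1.45) were also among them. So were LSMT-L, related to the Rubisco methyltransferase (2.53 and 2.03), and CP1 (1.35 and 2.13).

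13 genes were higher at both the root pole and the torpedo basal end, among 138 single-gene probe sets higher at the root pole. Of all probe sets, 6.67% were higher in torpedo basal without overlap, with no minimum signal. HHP2, a heptahelical membrane protein, had signals of 388.7, 120.1 and 38.4 on the cotyledon arrays and of 932.7, 3380.5 and 391.0 on the root arrays (-3.0, SE 0.97), and its torpedo difference was -2.12 (SE 0.97). IQD16, a calmodulin-binding scaffold protein of the IQD family, had 28.5, 175.8 and 19.6 on the cotyledon arrays and 289.5, 1031.1 and 194.0 on the root arrays (-2.74, SE 1.04), with -3.39 (SE 1.04) at the torpedo stage. AT1G25530 had 19.8, 52.1 and 96.8 on the cotyledon arrays and 721.8, 978.0 and 198.1 on the root arrays (-3.19, SE 1.01), with -3.71 (SE 1.01) at the torpedo stage. ASPGB1, an asparaginase, had differences of -1.17 and -1.89. The genes named from these 43 were chosen after their values were seen.

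For 4 list members with large torpedo differences, chosen after their values were seen, the heart values were smaller. NGA1 had a torpedo difference of 3.6 (SE 0.73, adjusted p = 0.0485) and a heart difference of 0.79, and GH3.3 had 4.75 (SE 0.93, adjusted p = 0.0485) and 0.78. YAB3 (3.55, adjusted p = 0.192) and YUC4 (2.82, adjusted p = 0.445) did not pass at the torpedo stage, and their heart differences were 0.66 and 0.35. The tests of heart minus torpedo did not pass for any of these 4 (adjusted p = 0.912 each). BBM and JKD were lower apically at the torpedo stage without overlap, with differences of -4.17 (SE 1.28) and -2.35 (SE 0.87), neither past the threshold. At the heart stage JKD separated without overlap, but BBM did not.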

How the data were processed

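Each deposited value is the intensity of a probe set on a linear scale, made by the authors with MAS5, per the submitters' processing notes; its settings are not stated there. The trimmed mean (2% at each end) was 100 on every array, so no further scaling was applied. The number of arrays, 3 a pole, limits the precision. An exact permutation test of 3 arrays against 3 cannot go below p = 0.1.

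Groups came from titles. 2 torpedo arrays whose title and tissue label contradict each other entered no comparison. Values were taken as log2(value + 10), which understates changes of dim probe sets. After leaving out 64 control probe sets and those that did not reach 50 on at least 2 of the 25 arrays, the fit used limma 3.58.1 under R 4.3.3, with 1 mean for each of 9 groups and eBayes with an intensity trend. Tests were two-sided with Benjamini-Hochberg adjustment over the 20890 probe sets and a threshold of 0.05. An SE after a log2 difference comes from that model, which shares 1 spread per probe set over all 9 groups. The SE of a probe set is therefore the same for its heart, globular and torpedo differences. It is not the spread of the heart arrays alone. The fit was tested on simulated data. Counts, list medians and figures were made in Python 3.11.15.

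Probe sets were named from the platform's probe table, updated through RefSeq names of assembly TAIR10.1 (13436 of the 13513 with 1 gene matched; 503 had several genes and 8730 none, and neither kind was named). 11933 carry only a locus code, so few list genes could be measured, and lists use 1 probe set per gene, the one with the highest mean. Cytosolic ribosomal proteins were not used here, because the gene table holds no descriptions.

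Named genes are every called probe set and, in each direction, the 12 largest differences among single-gene probe sets whose groups do not overlap and whose higher group is at least 50 throughout, plus list members. The arrays, lists and rules were chosen with earlier results of these data known. Alternatives were quantile normalization, median centring, pseudocounts of 1 and 50, no filter or 100 on 3 arrays, no trend, array weights, the 6 heart arrays alone, a block for the replicate number, and removal of each heart array in turn.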

Additional observations from a re-analysis of the deposited data

Results flagged for a closer look

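Among the genes named by the rule and the list members, 3 had groups that did not overlap at the heart stage and did not overlap in the opposite direction at the torpedo stage. For none of them did the test of the difference between stages pass in limma. Of the 547 and 278 probe sets higher at the cotyledon and root pole without overlap and with at least 50 in the higher group, 4.75% and 5.40% separated in the opposite direction at the torpedo stage. These are not shares of the named genes and list members. The shares of all probe sets in those torpedo directions were 6.67% and 4.94%. AT1G73620 was lower at the cotyledon pole of the heart embryo (-4.55) and higher in torpedo apical than basal (2.27), with 1671, 1781 and 2300 in torpedo apical and 367.9, 103.4 and 1435 in torpedo basal. Its heart minus torpedo difference was -6.82 (adjusted p = 0.473). psbZ had -3.95 at the heart and 0.51 at the torpedo stage, a difference of -4.46 (adjusted p = 0.912). GH3.1 had 0.59 and -0.33, a difference of 0.92 (adjusted p = 0.914), and read below 50 on all 6 heart arrays, so it is not among the 547.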

How the results depend on the processing

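The 2 probe sets called between the heart poles became 6 with array weights and 0 with the 6 heart arrays alone. They became 53 without both arrays numbered 1 and 4 with quantile normalization and cotyledon array 2 left out, 2 settings chosen after seeing the data. Leaving out 1 array gave 0 to 50 calls: 50, 5 and 0 without cotyledon array 1, 2 or 3, and 8, 5 and 6 without root array 1, 2 or 3. With the replicate block, run on the 6 heart arrays alone, the count was also 0 (909 at an unadjusted p below 0.05, against 691 for those arrays without the block, where the count was 0 too). Deviations of same-numbered arrays of the 2 poles correlated at 0.38, 0.15 and 0.07, against -0.24 to 0.07 for arrays of different numbers. The labels do not say that the numbers pair the captures. Since the last same-number value is also under 0.1, the numbers were not taken as pairs in the main fit. The count of heart minus torpedo differences was 0, but 1 with median centring, 2 with a pseudocount of 50 and 9 with array weights. Probe set 253010_at passed in 14 of 18 settings and 261305_at in 15 (253010_at not with quantile normalization and cotyledon array 2 left out, adjusted p = 0.0669). None of the 2 called probe sets and the 24 genes of largest difference changed sign. Their groups do not overlap, so leaving out arrays or changing the pseudocount could not turn the sign, and this is no check of it. Of their values, 448 stayed on the same side of the threshold, 13 passed it and 7, all of the 2 called probe sets, no longer did. AT5G38180 passed in 5 of 18 settings. Of 122 list genes, which were not chosen by overlap, 64 changed sign in at least 1 setting. Of the list medians, 366 moved by less than the spread between arrays and 11 by more. The cause of these changes was not tested beyond the removal of an array itself.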

Other observations

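5 further gene families were listed by symbol after the files had been seen, and no member passed the test. The expansins and other cell wall loosening genes had 29 positive differences of 39 measured, with a median of 0.54 that was 0.06 without cotyledon array 2. EXPA15, an expansin, had signals of 156.5, 321.5 and 171.3 on the cotyledon arrays and of 75.3, 80.8 and 99.3 on the root arrays (1.19, SE 0.64), and EXPB2 had 67, 171.5 and 118.9 on the cotyledon arrays and 51.3, 53.4 and 51.4 on the root arrays (0.97, SE 0.78). The 15 mitochondrial genes had 12 positive differences and a median of 0.57, which was -0.01 without cotyledon array 2. cox1, a subunit of cytochrome oxidase, had 50.3, 136.2 and 85.5 on the cotyledon arrays and 44.6, 34.7 and 28.0 on the root arrays (1.06, SE 0.72).

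GSTU16, a glutathione S-transferase, had signals of 4.8, 55.8 and 18.1 on the cotyledon arrays and of 106.6, 62.4 and 827.3 on the root arrays (-2.67, SE 1.12), while 8 of the 12 measured family members had a positive difference. UGT76C2, which glucosylates cytokinins, had 46.3, 203.0 and 65.5 on the cotyledon arrays and 18.9, 12.9 and 32.1 on the root arrays (1.67, SE 0.85), and the median of 41 UDP-glycosyltransferases was 0.44. UBC18, a ubiquitin-conjugating enzyme, had 84.1, 165.2 and 72.3 on the cotyledon arrays and 52.6, 13.2 and 15.2 on the root arrays (1.74, SE 0.74), and the median of 12 such enzymes was 0.24. These medians stand beside 0.29 for all probe sets.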
